A study of Mus musculus with 62 samples.

Results

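The regulatory regions of 10 genes of the calcineurin and NFAT pathway were described in mouse skeletal muscle. The genes were Nfatc1, Nfatc2, Nfatc3, Nfatc4 and Nfat5, which encode transcription factors, Ppp3ca, Ppp3cb and Ppp3r1, which encode calcineurin subunits, and Rcan1 and Rcan2, which encode calcineurin inhibitors. A region was a member when the authors' annotation gave one of these symbols as its nearest gene. By this rule 932 of the 596282 peaks in 16 lists of histone marks were members, and so were 12 of 5334 regions in 4 lists of differential acetylation. The peaks belonged to 10 of the 19220 genes named in the 16 lists.

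Chromatin immunoprecipitation sequencing measured H3K27ac, an acetylation that marks enhancers and promoters in use, and H3K4me2, a methylation found at both, in 32 of the series' 62 libraries. There were 2 replicates of each mark in each of 8 groups. All mice were labelled C57BL/6, and the study's methods give male C57BL/6J mice. The wild-type, sedentary groups were EDL (extensor digitorum longus) and Quad (quadriceps), muscles rich in fast glycolytic fibers, and Sol (soleus) and Dia (diaphragm), muscles with more oxidative fibers. The other groups were all quadriceps: sedentary wild-type mice (Sed), wild-type mice that ran voluntarily on wheels for several weeks (Ex), sedentary wild-type littermates (Wt), and sedentary mice labelled PGC1a Tg(+) (mTg). The transgene overexpresses the coactivator gene Pgc1a all the time and in skeletal muscle only, so it is a model of 1 of the factors that exercise induces and not of exercise. Per the study, the muscle creatine kinase promoter drives it. A Quad sample was the muscle of 1 mouse, while the smaller muscles of several mice were pooled for each EDL, Sol or Dia sample. Whole muscle also holds vessels, connective tissue and blood cells, and a smaller share of cells carrying a mark cannot be told apart from less of the mark per cell.

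Calcineurin is a phosphatase switched on by calcium and calmodulin. It consists of a catalytic A subunit (Ppp3ca, Ppp3cb) and a regulatory B subunit (Ppp3r1), and it removes phosphates from NFATc proteins, which then enter the nucleus and act on genes. Nfat5 is the member of the family that calcineurin does not regulate and that responds to osmotic stress. Calcipressins (Rcan1, Rcan2) bind calcineurin and hold it back, and the internal promoter of Rcan1 is itself a textbook target of NFAT. In muscle the pathway is known for its part in the slow oxidative fiber program.

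Sequence is shown for 4 places on which the results turn: the starts of both calcipressin genes and the strongest NFAT peak. The internal promoter of Rcan1 (chr16:92400079-92400328, minus strand) and its upstream promoter (chr16:92466170-92466419, minus strand) are the alternative starts of the calcipressin 1 gene. The first promoter of Rcan2 (chr17:43801102-43801351, plus strand) lies in the region with the largest acetylation gain in mTg among the members. The fourth place is the highest-scoring NFAT peak of the members, within Rcan1 (chr16:92443709-92443911, plus strand). The sequences are from RefSeq for GRCm38.p6 (mm10), the promoters are given as the 250 bases before the start site, and capitals mark the NFAT core word GGAAA on either strand (TTTCC on the other).
Rcan1 internal promoter: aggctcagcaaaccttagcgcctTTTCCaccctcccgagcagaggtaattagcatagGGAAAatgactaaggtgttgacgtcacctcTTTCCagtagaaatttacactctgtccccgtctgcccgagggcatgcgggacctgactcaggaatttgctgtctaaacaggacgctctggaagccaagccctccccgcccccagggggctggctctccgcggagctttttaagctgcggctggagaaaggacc
Rcan1 upstream promoter: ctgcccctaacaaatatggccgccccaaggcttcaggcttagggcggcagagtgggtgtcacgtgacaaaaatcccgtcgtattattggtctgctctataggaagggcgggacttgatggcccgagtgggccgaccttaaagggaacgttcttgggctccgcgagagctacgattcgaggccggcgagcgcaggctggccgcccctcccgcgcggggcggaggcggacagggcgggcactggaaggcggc
Rcan2 first promoter: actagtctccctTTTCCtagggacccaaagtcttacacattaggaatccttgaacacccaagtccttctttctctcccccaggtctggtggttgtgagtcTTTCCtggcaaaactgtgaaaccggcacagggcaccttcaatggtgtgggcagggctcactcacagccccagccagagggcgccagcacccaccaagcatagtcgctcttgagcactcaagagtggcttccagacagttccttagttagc
Rcan1 NFAT peak: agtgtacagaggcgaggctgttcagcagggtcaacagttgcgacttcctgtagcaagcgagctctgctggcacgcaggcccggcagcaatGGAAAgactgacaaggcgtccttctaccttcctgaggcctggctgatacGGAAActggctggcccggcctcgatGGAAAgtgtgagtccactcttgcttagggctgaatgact

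The promoter table gave 13 promoters of 300 bases for 8 of the 10 genes, with no entry used for Nfatc1 and Ppp3ca. The internal promoter of Rcan1 held 3 NFAT cores and 1 AP-1 word (TGANTCA), and its upstream promoter held 0 of either. Of 32851 RefSeq promoters of this length, 61.3% held at least 1 core and 9.42% held 3 or more, while 7.81% held the AP-1 word. Promoters of Ppp3cb (4 cores), Nfatc4 (3) and the upstream start of Nfatc2 (3) were also at the rich end, and those of Ppp3r1 and the second start of Rcan2 held 0. The distal start of Rcan2 held 0 cores and 1 AP-1 word. The MEF2 word (CTA and TAG with 4 free bases between) and the nuclear receptor half-site AGGTCA, found in 3.69% and 16.3% of promoters, were in none of the 13 windows. A short word of this kind describes the letters and is not a binding site.

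Depth ranged from 6.41 to 24.2 M tags per library, and from 11.7 to 24.2 M in H3K27ac. All 6 general skeletal muscle markers carried H3K27ac peaks in all 8 groups. All 6 slow fiber markers did so in Sol and Dia (78.2 and 46.6 kb of peaks), against 2 to 4 of 6 in the other groups (8.67 to 21 kb), where Myh7 and Tnnc1 had no peak. Fast fiber markers had peaks for 6 or 7 of 7 genes in every group, and all 3 endothelial and all 3 fibroblast markers had peaks everywhere. The H3K4me2 libraries labelled mTg and Wt were taken as labelled, with this limit: over 82 matched regions of the 844 hypoacetylated in mTg, the median H3K4me2 difference between mTg and Wt was 0.16 on the log2 scale. The lowest depth belonged to the library labelled mTg H3K4me2 replicate 1.

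The first question was how strongly each gene's start site was marked. Levels are log2 tags per kb of peak, each list was normalized on its own, and a percentile is the share of peaks in the same list with a lower level. Ppp3ca, a catalytic subunit, was the most steadily acetylated member, and its start-site peak stood at percentiles 97.4 to 99.4 in all 8 H3K27ac lists. Its replicate levels were 7.97 and 8.23 in EDL, 8.03 and 7.79 in Quad, 7.69 and 7.85 in Sol, 8.12 and 8.50 in Dia, 8.07 and 8.40 in Sed, 8.13 and 7.74 in Ex, 7.42 and 7.18 in Wt, and 7.96 and 7.59 in mTg. Wt was the lowest in both replicates, and its list was the one with the most peaks (49010). The peak over the start site of Ppp3cb, the other catalytic gene, was listed under its divergent neighbour 1810062O18Rik in every group and stood at percentiles 90.8 to 99.3. By the annotation rule Ppp3cb therefore had almost no peaks of its own, and its start site is given here only to show that it was marked. Ppp3r1, the regulatory subunit, stood at percentiles 91.9 to 96.9.

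Among the NFAT factors the order was different. Nfat5 (percentiles 91.7 to 97.9) and Nfatc3 (90.4 to 99.5) overlapped the ranges of Ppp3r1 and Ppp3cb, and Nfat5 lay below Ppp3ca in all 8 lists. Nfatc4 was lower (74.3 to 87.7). Nfatc1, the factor whose own transcription NFAT is known to amplify, had its higher start-site peak at percentiles 86.5 to 97.5, and the peaks over its starts ran together in Wt and mTg. Nfatc2 was the weakest. Its internal start carried H3K27ac in all 8 lists at percentiles 50.8 to 85.3, whereas its upstream start, some kilobases away, carried an H3K27ac peak in EDL, Sol, Dia and Ex only, at percentiles 27.3 to 52.4. Yet the same upstream start carried H3K4me2 in all 8 lists, at percentiles 68.9 to 82.2. Neighbouring percentiles of Nfat5, Nfatc3, Ppp3r1 and Ppp3cb overlapped across groups, while those of Nfatc4 and of the Nfatc2 internal start lay below all of theirs.

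Of the calcipressins, Rcan1 had both starts acetylated in every group, the internal one at percentiles 55.3 to 86.3 and the upstream one at 64.7 to 88.2. In Sol the internal start was the higher of the pair, at 7.09 and 6.90 against 6.23 and 6.33 upstream. It was the lower of the pair in Ex (6.30 and 5.72 against 6.51 and 6.54), Wt (5.60 and 5.90 against 6.42 and 6.44), mTg (6.20 and 5.75 against 7.01 and 6.53) and Dia (6.84 and 6.57 against 6.98 and 7.03). Replicates of the starts did not overlap within any of these 5 groups, and in EDL, Quad and Sed they overlapped or touched. In H3K4me2 the internal start ranged from percentile 68.8 in Sed to 95.6 in Ex.

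Rcan2 had 1 strong start-site peak. In most lists it lay over several neighbouring starts, so its signal cannot be assigned to 1 of them. Its H3K27ac levels were 7.45 and 7.31 in EDL, 6.26 and 6.28 in Quad, 7.38 and 7.08 in Sol, and 8.19 and 8.43 in Dia. In the quadriceps groups they were 6.94 and 7.20 in Sed, 7.49 and 6.75 in Ex, 6.46 and 6.53 in Wt, and 7.27 and 7.04 in mTg. Dia was the highest and Quad the lowest in both replicates, and the corresponding percentiles were 97.5 and 69.8. The Ex replicates lay on both sides of those of Sed and mTg, so no order among these groups could be read. A distal start of Rcan2 far downstream carried H3K4me2 in all 8 lists at low percentiles (0.364 to 30.7) and H3K27ac in mTg only (percentile 14.4, replicates 4.11 and 3.85).

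**Figure D1:**
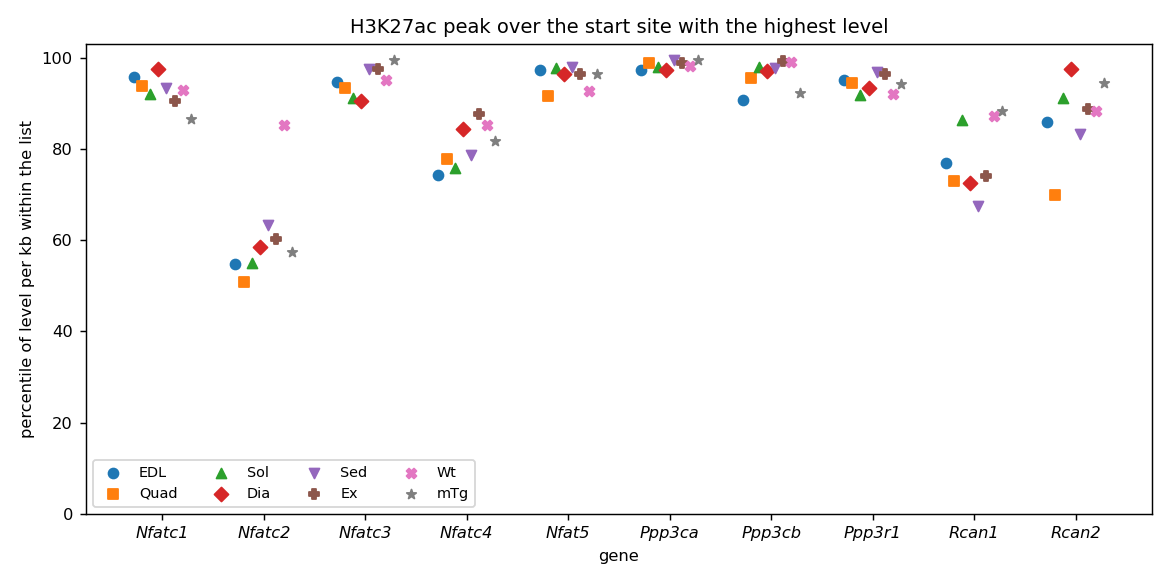
H3K27ac peak over the highest start site of each gene, as the percentile of its level (log2 tags per kb) within the list of each of the 8 groups, 1 point a list from 2 replicates. Ppp3ca lies between 97.4 and 99.4 in all lists, Nfatc2 is lowest in most, and Rcan2 spans 69.8 in Quad to 97.5 in Dia.

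**Figure D2:**
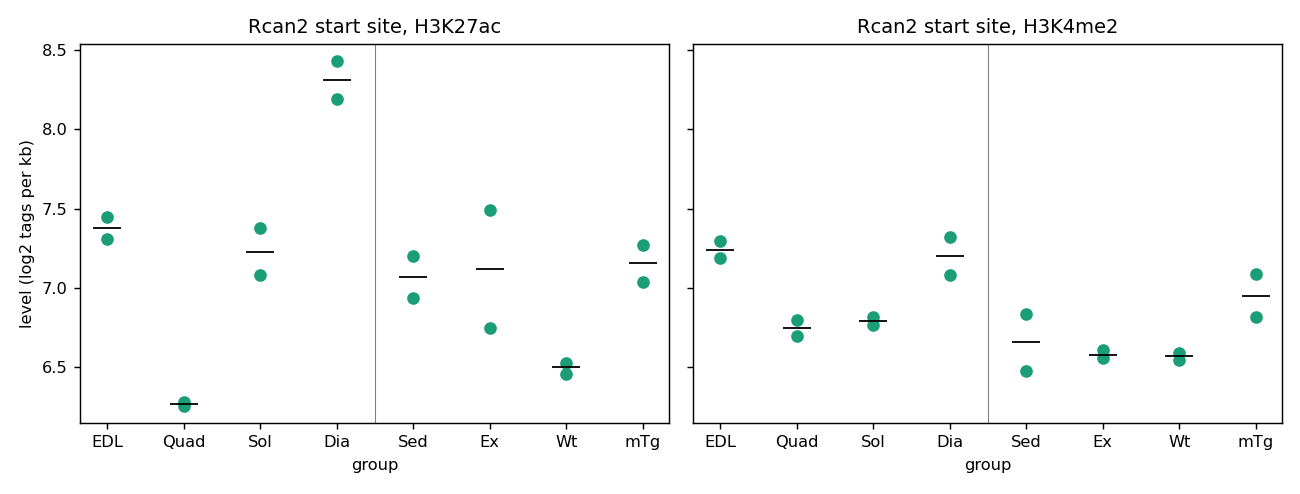
Level of the peak over the first start site of Rcan2 in each library (points) and its mean over 2 replicates (bars), in log2 tags per kb, for H3K27ac and H3K4me2. In H3K27ac the Dia points (8.19 and 8.43) are the highest and the Quad points (6.26 and 6.28) the lowest, and in H3K4me2 all 16 points lie closer together; each list was normalized on its own.

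Within each gene the most acetylated region per kb was usually the start site. In EDL, Quad, Sol and Dia this held for Nfatc1, Nfatc3, Nfatc4, Nfat5, Ppp3ca, Ppp3r1, Rcan1 and Rcan2, with Rcan1 using its internal start in Sol and its upstream start in the other muscles. Nfatc2 was the exception. Its highest region lay deep in the gene in EDL (chr2:168517299-168521662, 6.87 and 7.21), Quad (chr2:168518068-168523366, 6.49 and 6.34) and Sol (chr2:168517537-168520454, 6.84 and 6.94), about 70 kb from the internal start. In Dia the highest was the region at that start (6.25 and 6.81). At that intragenic place Nfatc2 reached percentiles 77.6, 73.5 and 83.7, against 50.8 to 54.9 at its internal start in the same 3 muscles.

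The second question was how much chromatin each gene had marked. In H3K27ac member peaks numbered 42 in Dia, 57 in Sol, 66 in Quad, 70 in EDL, 57 in Sed, 44 in Ex, 95 in Wt and 64 in mTg, which was 0.127% to 0.196% of each list. In H3K4me2 they had 36 to 79 peaks (0.130% to 0.168%). These numbers follow the number of peaks called and the width of peaks in each list, so lengths are also given per 100000 bp of all peaks in the list.

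Nfatc1 and Nfatc2 had the longest marked stretches of the factors. Nfatc2 had 45.8 kb of H3K27ac peaks in EDL, 36.7 in Quad, 38.4 in Sol, 25.4 in Dia, 31.2 in Sed, 31.6 in Ex, 39.9 in Wt and 9.18 kb in mTg. The mTg list stood apart, with 8 peaks against 21 in Wt, and per 100000 bp of peaks Nfatc2 took 13.3 bp in mTg and 32.1 to 48.1 bp in the other lists. Nfatc1 had 42.5, 41.2, 27.7 and 18.7 kb in EDL, Quad, Sol and Dia, and per 100000 bp of peaks 44.6, 46.1, 33.3 and 23.7 bp, so the glycolytic muscles held more of it than either oxidative muscle on both scales. Nfatc3, Nfatc4 and Nfat5 had 1.74 to 5.85 kb in any group, mostly the start site itself.

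Across the muscles Ppp3ca showed a like order to Nfatc1, with 8.0 kb in Dia, 9.38 in Sol, 24.4 in Quad and 28 in EDL, from 3, 4, 16 and 13 peaks. In the treated pairs it had 22.2 kb in Sed against 12.4 in Ex, and 34.5 in Wt against 17.4 in mTg. Per 100000 bp of peaks Ppp3ca took 29.4 bp in EDL and 27.3 in Quad, against 11.3 in Sol and 10.1 in Dia. It took 25.2 bp in Sed against 15 in Ex, and 38.8 in Wt against 25.2 in mTg, so each order was the same on this scale. Untreated quadriceps ran from 25.2 in Sed and 27.3 in Quad to 38.8 in Wt. On this scale mTg was thus at the lower end of the untreated range and Ex was below it. Nfatc1 took 28.3 bp in Ex against 47.0 in Sed, the same order as Ppp3ca. In mTg Nfatc1 took 51.4 bp against 46.8 in Wt, the reverse of Ppp3ca, although in kb it had 35.6 against 41.5. Ppp3r1 had 1.85 to 3.95 kb. Rcan2 showed the opposite order, with 34.1 kb in Sol and 19.6 in Dia against 15.4 in EDL and 10.5 in Quad, and 22.4 kb in mTg against 15.6 in Wt. Per 100000 bp of peaks it took 40.9 bp in Sol and 24.8 in Dia against 16.1 in EDL and 11.7 in Quad, and 32.3 bp in mTg against 17.6 in Wt. Rcan1 had 30.2 kb in Dia, 30.8 in Sol, 16.4 in Quad and 28 in EDL. Per 100000 bp of peaks it took 38.2 bp in Dia, 37.0 in Sol, 18.3 in Quad and 29.5 in EDL. The other untreated quadriceps groups had 28.9 kb in Sed (32.8 bp per 100000) and 15.1 kb in Wt (17.0 bp). The low Rcan1 length of Quad was thus not shared by all untreated quadriceps. With 1 list a group, these lengths have no replicate error and were not tested.

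**Figure D3:**
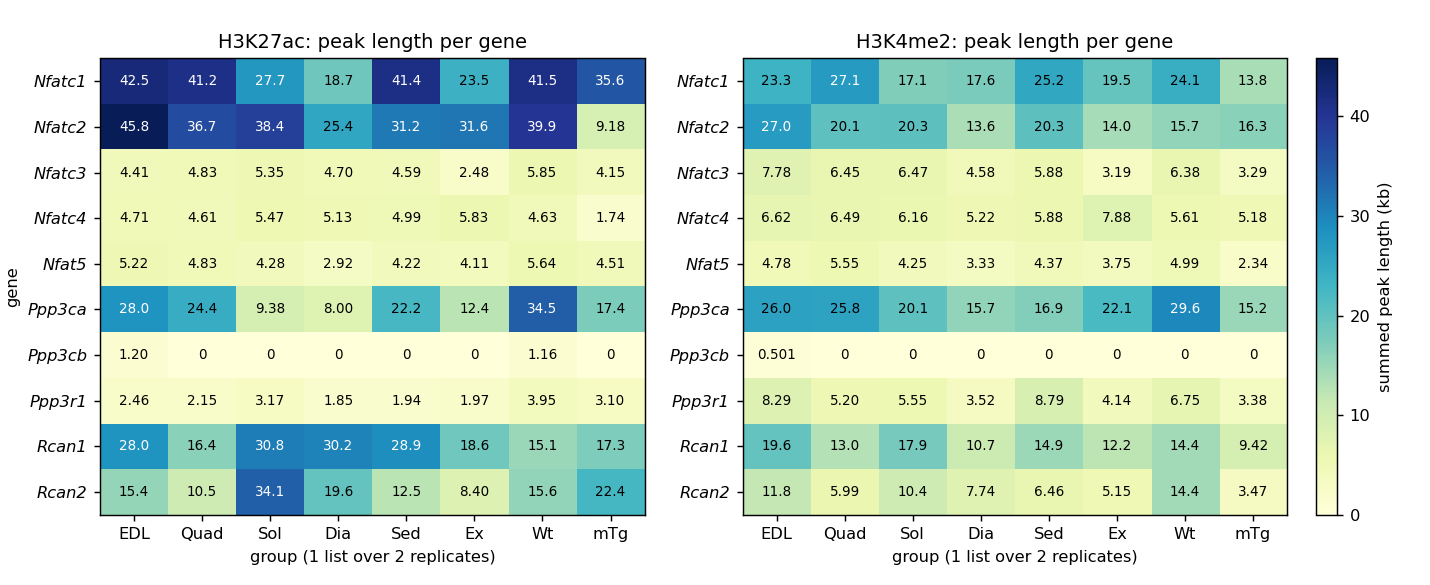
Summed length of peaks (kb) annotated to each gene in each of the 8 groups, for H3K27ac and H3K4me2, 1 list a group. In H3K27ac, Ppp3ca falls from 28 kb in EDL to 8.0 kb in Dia, Rcan2 is longest in Sol (34.1 kb), and Nfatc2 is shortest in mTg (9.18 kb).

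To count the same places once, the peaks of EDL, Quad, Sol and Dia were merged. Of 89 merged H3K27ac regions of the members, 23 (25.8%) were called in all 4 muscles, against 37.4% of all 51590 merged regions, and 30 (33.7%) in 1 muscle alone, against 31.7%. Regions called in EDL or Quad and in neither Sol nor Dia were 32 of 89 (36.0%, against 25.5% of all), and those called in Sol or Dia and in neither EDL nor Quad were 15 (16.9%, against 14.5%). The share in EDL and Quad together and in no other muscle was 15 of 89 (16.9%), where 6.17% of all regions were of this kind. Neighbouring regions of a gene are not independent, so these shares describe the 10 genes and were not tested.

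The genes differed from each other in this count. Of 16 Ppp3ca regions, 12 (75.0%) were called in EDL or Quad and in neither oxidative muscle, and 0 were called in the reverse pattern. Nfatc1 had 10 of 16 (62.5%) of the first kind and 2 of the second, and Nfatc2 had 6 and 1 of 18. Rcan2 was the reverse, with 2 of 18 (11.1%) of the first kind and 7 (38.9%) of the second. Rcan1 had 4 of 8 (50%) in all 4 muscles and 0 in the glycolytic muscles only.

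Regions called in 1 muscle alone numbered 8 for Rcan2, 7 for Nfatc1 and 6 for Ppp3ca in H3K27ac, 3 each for Nfatc2 and Nfatc3, and 1 each for Ppp3cb, Ppp3r1 and Rcan1. The best-scoring one of Ppp3ca was in Quad, chr3:136707024-136709071 within the gene, with levels of 5.19 and 5.30 (percentile 37.5). That of Rcan2 was in Sol, the intergenic chr17:43788782-43791117, with 4.86 and 4.94 (percentile 12.3). That of Ppp3cb, chr14:20576180-20577376 in EDL with 6.30 and 6.46, was the highest by percentile (58.1), and those of Nfatc1, Nfatc2, Nfatc3, Ppp3r1 and Rcan1 lay at percentiles 2.98 to 27.3.

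In H3K4me2 the same split was smaller. Of 86 merged regions of the members, 26 (30.2%) were called in all 4 muscles, against 39.6% of all 56760, and 27 (31.4%) in 1 alone, against 30.8%. EDL or Quad without Sol and Dia made up 29 (33.7%, against 29.2%), and the reverse 9 (10.5%, against 9.91%). Nfatc1 again had most of its regions of the first kind (8 of 13, 61.5%), Ppp3ca had 7 of 19 (36.8%), and Rcan2 had 2 and 3 of 11. Of Nfatc1 and Ppp3ca, Nfatc1 alone kept a majority of its regions in the glycolytic muscles in both marks.

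**Figure D4:**
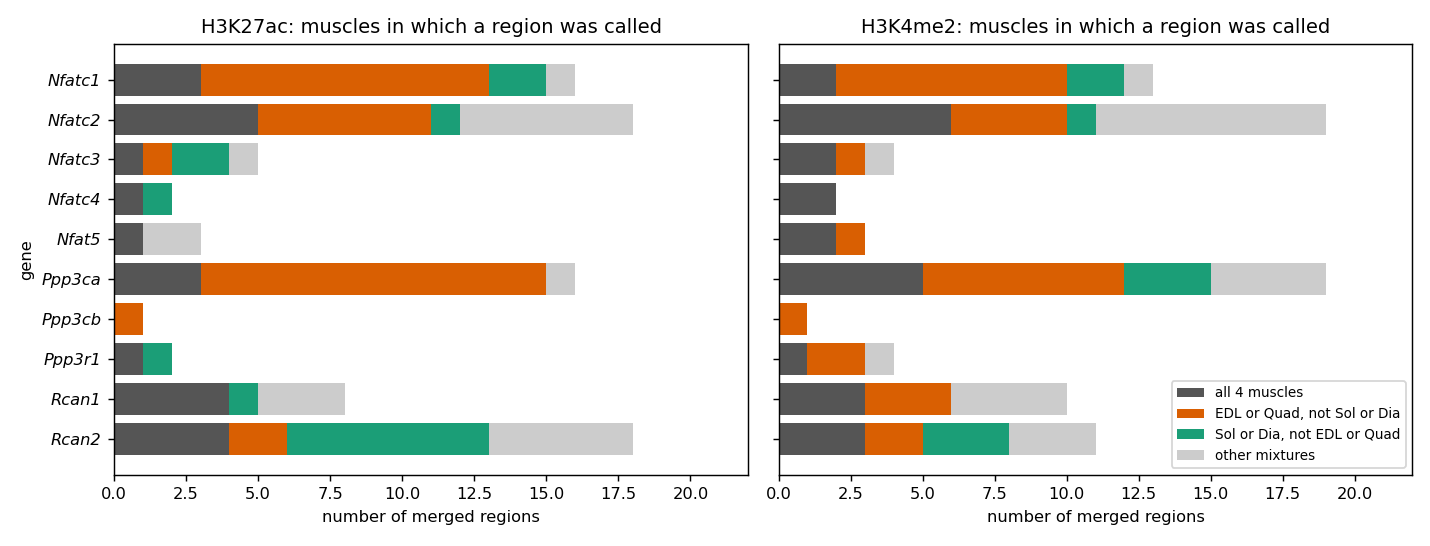
Number of merged regions of each gene by the muscles in which they were called, for H3K27ac and H3K4me2. In H3K27ac, 12 of 16 Ppp3ca regions and 10 of 16 Nfatc1 regions were in EDL or Quad only, and 7 of 18 Rcan2 regions were in Sol or Dia only.

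The third question was which regions called in both of a pair of groups differed in level. Regions were matched at a reciprocal overlap of at least 50%, levels per kb were centred on the median of all matched regions, and a region counted when it was over 2-fold apart with replicates that did not overlap after centring. No test was run between separately normalized lists. In H3K27ac the counts of member regions over 2-fold apart were 0 of 32 for EDL against Quad (0.643% of all matched regions were so), 1 of 25 for Sol against Quad (3.74%), 3 of 18 for Dia against Quad (4.27%) and 0 of 31 for EDL against Sol (2.88%). They were 0 of 26 for Dia against Sol (1.65%) and 1 of 27 for Dia against EDL (3.10%). In the treated quadriceps they were 0 of 25 for Ex against Sed (3.17%) and 1 of 26 for mTg against Wt (4.64%). Between groups of untreated quadriceps they were 0 of 28 for Sed against Quad (1.07%), 1 of 36 for Wt against Quad (1.36%) and 0 of 29 for Wt against Sed (0.495%). Over the 11 pairs, which share groups, this was 7 of 303.

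In H3K4me2 the counts for the muscles were 0 of 35 for EDL against Quad (0.457%), 1 of 25 for Sol against Quad (1.89%), 1 of 22 for Dia against Quad (1.58%) and 1 of 36 for EDL against Sol (0.626%). They were 0 of 25 for Dia against Sol (0.439%) and 0 of 28 for Dia against EDL (0.678%). For Ex against Sed the count was 3 of 25 (0.0925%), and for the libraries labelled mTg and Wt it was 0 of 25 (0.724%). The untreated groups gave 0 of 24 for Sed against Quad (0.738%), 0 of 28 for Wt against Quad (2.70%) and 2 of 28 for Wt against Sed (1.78%), and all 11 pairs gave 8 of 301. With so few member regions in a pair, 1 region moves a share by several percent.

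The H3K27ac regions were on 3 genes. At the start-site peak of Rcan2 (chr17:43800856-43804292 in Dia), the levels given above put Dia 1.58 above Quad on the centred log2 scale. At a second Rcan2 region, chr17:43854060-43857174 within the gene, Dia had 7.95 and 7.47 and Quad 6.34 and 6.14, a centred difference of 1.00. At another, chr17:43898678-43900964, Dia had 6.93 and 6.67 and EDL 5.95 and 5.09, a centred difference of 1.17. In each, both Dia replicates were above both of the other muscle.

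A region within Nfat5, chr8:107335676-107336811, was lower in Sol (4.85 and 5.13) than in Quad (6.59 and 6.61) by -1.67. The Quad peak there was narrow, 631 bp against 1136 bp in Sol, and Wt (4.98 and 5.27) was also below Quad, by -1.05, although both are untreated quadriceps. In H3K4me2 the same region was lower in Sol (5.50 and 5.39) than in Quad (6.75 and 6.90) by -1.42, at like widths of 1224 and 1263 bp. Nfatc2, chr2:168547678-168549988, was lower in Dia (5.06 and 4.84) than in Quad (5.56 and 5.45) by -1.02, and in H3K4me2 by -1.01.

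Over the input libraries of the same lists, in place of tags per kb, 2 of these 15 regions remained over 2-fold apart. The Rcan2 start site was 1.09 higher in Dia than in Quad on that scale. The other, the intergenic Rcan2 region chr17:43754044-43755266, turned its direction: per kb it was lower in mTg (4.07 and 3.65) than in Wt (5.51 and 5.19) by -1.42, and over input it was 1.18 higher in mTg. The Nfat5 differences fell away, at 0.07 over input for Sol against Quad in H3K27ac and 0.44 in H3K4me2. Of the 15, the Rcan2 start site was therefore the 1 region over 2-fold apart in the same direction on both scales. Untreated quadriceps also differed there, with 6.94 and 7.20 per kb in Sed against 6.26 and 6.28 in Quad. That pair of groups was less than 2-fold apart after centring. Dia was not compared with Sed.

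In H3K4me2 the exercise pair stood out by its count of 3. An intergenic Nfatc2 region, chr2:168472587-168474078, had 5.76 and 5.79 in Ex and 6.92 and 6.89 in Sed, a centred difference of -1.07. The Ex peak was 1492 bp wide and the Sed peak 752 bp, and over input the difference was -0.06. Of 2 Ppp3ca regions within the gene, chr3:136833043-136833952 was lower in Ex (4.04 and 4.80) than in Sed (5.59 and 5.62) by -1.13, and chr3:136703840-136706847 was higher in Ex (5.78 and 5.94) than in Sed (5.02 and 4.75) by 1.03. Over input these differences were 0.17 and 0.18. The first of these Ppp3ca places was also lower in the libraries labelled Wt than in Sed, by -1.28, and both of those groups were untreated. The other H3K4me2 regions over 2-fold apart were in Rcan1, chr16:92415488-92416401, lower in EDL (5.22 and 4.95) than in Sol (5.61 and 5.86) by -1.05, and in Nfatc2, chr2:168517768-168519029, lower in Wt (4.66 and 4.64) than in Sed (5.65 and 5.83) by -1.0.

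The fourth question was what exercise and Pgc1a changed in the lists that held both groups on one scale. In the 4 lists of regions that the authors selected for differing in H3K27ac, levels are log2 tags in the region, all 4 libraries were normalized together, and limma was fitted to each whole list (two-sided, adjusted over the list). The regions were chosen on these libraries, so the p-values describe how far replicates separate and are not independent evidence. Past an adjusted p of 0.05 were 99.7% of 2280 regions hypoacetylated in Ex, 100% of 1828 hyperacetylated in mTg and 100% of 844 hypoacetylated in mTg, and all 12 member regions were among them. Of the 12, 1 was in the hypoacetylated Ex list (0.0439% of its regions), 0 among the 382 of the hyperacetylated Ex list, 6 in the hyperacetylated mTg list (0.328%) and 5 in the hypoacetylated mTg list (0.592%), where members were 0.127% to 0.196% of the H3K27ac peaks of a group.

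Rcan2 had 5 of the 6 regions that gained acetylation in mTg. In that list 18 of 1409 genes (1.28%) had 5 or more regions. At the start-site region, chr17:43801020-43805462, mTg had 9.59 and 9.44 and Wt 8.31 and 8.45. The difference was 1.14 with an SE of 0.13 (limma, adjusted p = 2.71e-08), which ranked 177 of 1828 by size. This region spans several neighbouring starts, and its annotated distance of -762 bp was to a later start than the first. Both mTg replicates were above both Wt replicates by about a whole log2 unit, against a median of 0.74 in the list.

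Further into the gene the gains were smaller. At chr17:43853607-43857966 mTg had 8.44 and 8.49 and Wt 7.33 and 7.68, a difference of 0.96 (limma, adjusted p = 5.32e-07). At chr17:43843292-43844946 mTg had 6.37 and 6.51 and Wt 5.58 and 5.46, a difference of 0.92 (limma, adjusted p = 4.42e-07). Both regions were above the list's median, with every mTg replicate over every Wt replicate.

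The other 2 Rcan2 regions were below that median. At chr17:43848856-43850166 mTg had 5.16 in both replicates and Wt 4.60 and 4.74, a difference of 0.49 (limma, adjusted p = 6.02e-04). At chr17:43973023-43974033 mTg had 4.75 and 4.61 and Wt 4.22 and 4.28, a difference of 0.43 (limma, adjusted p = 0.00205). Set against the whole list, whose median rose by 0.74, these 2 rose less than most.

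The Rcan2 regions were found in different muscles. The region at chr17:43853607-43857966 had a peak in all 8 H3K27ac lists, highest in Dia (7.95 and 7.47 per kb) and most spread in Ex (6.20 and 4.96). The region at chr17:43848856-43850166 had peaks in Sol (6.12 and 6.06) and Dia (6.44 and 6.52) and in none of EDL, Quad, Sed, Ex and Wt. The region at chr17:43843292-43844946 had a peak in EDL (5.99 and 5.64) and mTg only, and chr17:43973023-43974033 in mTg only. So 1 of the 5 was shared between mTg and the oxidative muscles and absent from the other lists. That region overlaps the merged stretch chr17:43845699-43850019, which was called in EDL as well as in Sol and Dia. The EDL peak of the stretch did not reach the region. Over the 6 hyperacetylated member regions, 3 had a peak in Dia, 3 in Sol, 2 in Quad and 4 in EDL, and in the whole list 54.3%, 50.4%, 52.3% and 57.4% did. In H3K4me2, 3 of the 5 Rcan2 regions had no peak in the libraries of any of the 4 muscles.

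Nfatc2 had 4 of the 5 regions that lost acetylation in mTg, where 13 of 670 genes (1.94%) had 4 or more. At chr2:168560938-168564056 within the gene, mTg had 5.47 and 5.90 and Wt 7.05 and 7.20, a difference of -1.44 with an SE of 0.14 (limma, adjusted p = 8.30e-08), and it ranked 14 of 844 by size. At chr2:168585970-168590586, next to the internal start, mTg had 7.67 and 7.42 and Wt 8.49 and 8.46, a difference of -0.93 (limma, adjusted p = 3.38e-06). Both mTg replicates were below both Wt replicates, and both differences were larger than the list's median of -0.63.

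The remaining Nfatc2 losses were smaller than that median. At chr2:168547457-168549925 mTg had 5.81 and 5.74 and Wt 6.40 and 6.35, a difference of -0.59 (limma, adjusted p = 2.04e-04). At the intergenic chr2:168472690-168473639 mTg had 4.61 and 4.90 and Wt 5.28 and 5.33, a difference of -0.55 (limma, adjusted p = 6.19e-04). The groups did not overlap in either.

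Within their own lists the same Nfatc2 places showed how peaks shrank. The mTg peak covered 16.1% of chr2:168560938-168564056 and 28.5% of chr2:168585970-168590586, where the Wt peaks covered 100% and 97.8%. Neither of the other Nfatc2 regions had a peak in mTg. In H3K4me2 the intergenic region at chr2:168472690-168473639 was 6.86 and 6.81 per kb in the libraries labelled Wt and 5.49 and 6.07 in those labelled mTg. It was 6.92 and 6.89 in Sed and 5.76 and 5.79 in Ex, and 6.43 to 7.17 in the 8 libraries of the 4 muscles. Both treated groups were thus the lowest of the 8 groups there, though the widths of the peaks differed and each list had its own scale. The other Nfatc2 regions did not share this H3K4me2 order of mTg and Wt. At chr2:168547457-168549925 the mTg libraries had 5.11 and 4.87 and the Wt libraries 3.07 and 4.62. At chr2:168560938-168564056 mTg had 4.65 and 4.54 and Wt 3.90 and 4.28. At chr2:168585970-168590586 the mTg values, 6.21 and 5.86, lay on both sides of those of Wt, 6.11 and 6.07.

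Ppp3ca had 1 region that lost acetylation in mTg, chr3:136924323-136926145 within the gene, with 4.59 and 4.64 in mTg and 5.01 and 5.23 in Wt, a difference of -0.51 (limma, adjusted p = 0.00101). It had H3K27ac peaks in EDL, Quad and Wt and in no other list. Over the 5 hypoacetylated member regions, 5 had a peak in EDL and in Quad and 2 in Sol and in Dia, where in the whole list 75.7%, 83.6%, 33.1% and 34.1% did. Nfatc1 had 1 region that gained in mTg, chr18:80749235-80750508. It lay at -36800 bp, upstream of the start sites of Nfatc1 and so not inside that gene, although its class was intragenic. Levels there were 5.85 and 5.88 in mTg and 5.25 and 5.20 in Wt, a difference of 0.65 (limma, adjusted p = 2.99e-05).

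The exercise lists held a region of 1 member. Rcan1, chr16:92394407-92396463 downstream of its internal start, had 5.51 and 5.40 in Ex and 5.80 and 6.19 in Sed, a difference of -0.54 with an SE of 0.21 (limma, adjusted p = 0.0123). It ranked 2090 of 2280 by size, below the list's median of -0.76, and without Ex replicate 1 the adjusted p was 0.0567 and without Ex replicate 2 or Sed replicate 2 it was 0.112. The Sed list had a peak over all of it (4.80 and 5.65 per kb) and the Ex list had none. So the loss at Rcan1 was near the limit of what these replicates separate.

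Some marker genes were in the same lists. The hypoacetylated mTg list held 2 regions of the fibroblast markers Col3a1 and Pdgfra, whose 3 markers had 18.4 kb of H3K27ac peaks in mTg and 40.4 in Wt, and regions of the fast fiber genes Mylk2 and Pvalb, while the hyperacetylated mTg list held 1 of the fast fiber gene Myh1. The hypoacetylated Ex list held the fast fiber genes Myh1, Myh4, Mylk2 and Pvalb, and 0 regions of endothelial, leukocyte, fibroblast, satellite cell or smooth muscle markers. The Ex list also held 3 of the 6 general muscle markers (Actn2, Des and Ttn). The fibroblast markers had 56.3 kb of H3K27ac peaks in Ex and 29.6 in Sed, but 54.5 in untreated Quad. These lengths were not scaled to the list. In H3K4me2 the fibroblast order of mTg and Wt was the reverse, at 27.4 and 21.7 kb. Ex had 32.9 kb there, Sed 22.3 and Quad 37.6. Neither mTg list held a region of the endothelial, leukocyte, satellite cell or smooth muscle markers. In H3K27ac the leukocyte markers had a peak for 1 to 3 of 3 genes and 3.95 to 10.7 kb, with no peak at Cd68 in 6 of the 8 groups. No slow fiber marker was in any of the 4 lists. The part of these cells in the member regions' differences was not tested.

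**Figure D5:**
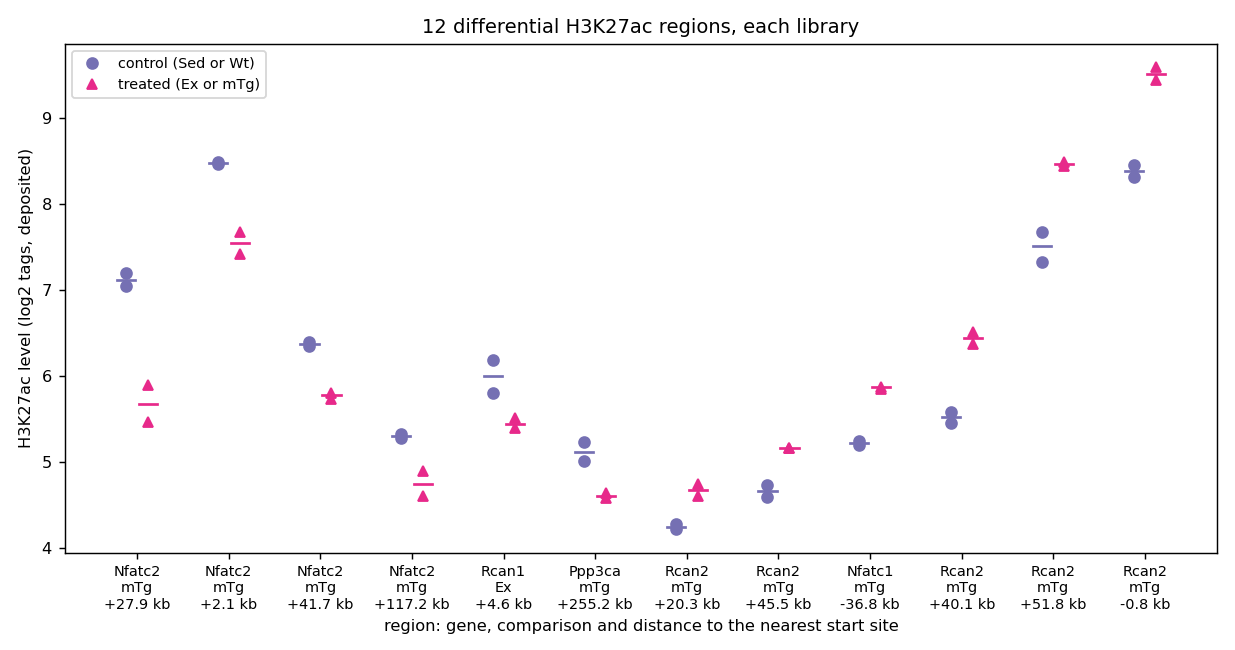
H3K27ac level (log2 tags in the region, deposited) of the 12 differential regions of the members in each control (Sed or Wt) and treated (Ex or mTg) library, with group means as bars, from the strongest loss to the strongest gain. In all 12 the 2 treated points do not overlap the 2 control points, and the differences run from -1.44 at Nfatc2 to 1.14 at Rcan2.

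Peaks called in 1 condition only were counted by gene. Of 95 Wt peaks of the members, 49 (51.6%) had no mTg peak, against 44.8% of all Wt peaks, and of 64 mTg peaks 20 (31.2%) had no Wt peak, against 23.5%. Ppp3ca had 16 of 24 Wt peaks without an mTg peak and Nfatc2 had 14 of 21. Rcan2 had 6 of 13 mTg peaks (46.2%) absent in Wt. In Sed, 24 of 57 member peaks (42.1%) had no Ex peak, against 26.9%, of which 7 were on Ppp3ca, and of 44 Ex peaks 11 (25%) had no Sed peak, against 26.4%. Between the untreated quadriceps groups, 39 of 95 Wt peaks (41.1%) had no Sed peak, against 37.9% of all, and 6 of 57 Sed peaks (10.5%) had no Wt peak, against 16.6%. By gene, 13 of 24 Wt peaks of Ppp3ca and 8 of 21 of Nfatc2 had no Sed peak.

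The last question was where the pathway's own factor lay. In the 1 NFAT library of Sol, 20 of 39661 peaks (0.0504%) had a member as nearest gene, where members were 0.167% of the H3K27ac peaks of Sol. By gene this was 9 for Ppp3ca, 3 for Nfatc1, 2 each for Nfatc2, Nfatc3 and Ppp3r1, and 1 each for Rcan1 and Rcan2. The Ppp3ca peaks scored 12.3 to 18.4, and none lay in an H3K27ac or H3K4me2 peak of Sol. These counts were not scaled to the length of a gene or its surroundings. The NFAT library of Quad had 485 peaks and 0 of them were of a member, so the libraries differ in yield by far more than any member could show. The highest of the members was the Rcan1 peak printed above, with a score of 47.0, rank 7 of 39661. It lay inside the Sol H3K27ac peak chr16:92439999-92445475 (6.03 and 5.83 per kb), a place with H3K27ac in EDL (6.11 and 5.78), Quad (5.98 and 4.95) and Dia (6.55 and 6.38) too. It held 3 NFAT cores, and 52.5% of all NFAT peaks of Sol, which were 203 bp wide, held at least 1, as did 14 of the 20 member peaks.

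Elsewhere NFAT peaks and marked chromatin seldom met. In Sol, 2 of 57 H3K27ac regions of the members held an NFAT peak (3.51%, Wilson 95% interval 0.968 to 11.9), against 3.02% of all H3K27ac regions, and 2.69% of all NFAT peaks lay in an H3K27ac region. The second was at the start site of Nfatc1, with a score of 14.3 (percentile 34.5). These intervals cover counting error over regions only, and each factor had 1 library.

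MED1, a mediator subunit found at active enhancers and promoters, was at the Ppp3ca promoter in Quad (score 10.9), Sol (8.19) and Dia (7.31). It was in 3 of 66 member H3K27ac regions in Quad (4.55%, 1.56 to 12.5, against 3.76% of all), 5 of 57 in Sol (8.77%, 3.81 to 18.9, against 5.34%), 2 of 42 in Dia (4.76%, 1.32 to 15.8, against 4.16%) and 0 of 70 in EDL (0 to 5.20, against 1.12%). All of these shares had intervals that include the share of all regions. In Sol, MED1 was also inside Rcan2, at chr17:43847118-43847328 (score 6.43), in acetylated chromatin.

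Accessible chromatin, by the pooled ATAC-seq list of control Quad, was in 31 of 66 member regions (47.0%, 35.4 to 58.8, against 57.2% of all). The highest signals were at the upstream start of Rcan1 (37.1 normalized tags, percentile 99.0) and the start of Ppp3ca (36.2, percentile 98.8), and Rcan2 had at most 8.29 (percentile 58.8) at its start site. Of the 12 differential regions 2 held an ATAC peak, at the Rcan2 start site and at chr2:168560938-168564056 in Nfatc2, where 77.5%, 42.7% and 66.0% of the hypoacetylated Ex, hyperacetylated mTg and hypoacetylated mTg lists did.

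The pathway around the members was read from a list of 22 further genes of calcium entry, calmodulin, NFAT kinases and calcineurin partners. Of these 18 to 21 had an H3K27ac peak in each list. Gsk3b, an NFAT kinase, had none in any of the 8, though it had H3K4me2 in 7, and Ppp3r2, the testis form of the regulatory subunit, had none in 7. In matched pairs 17 of 359 regions were over 2-fold apart in H3K27ac and 11 of 448 in H3K4me2, against 7 of 303 and 8 of 301 for the members. Of all matched regions, 0.495% to 4.64% in a pair were so in H3K27ac, and 0.0925% to 2.70% in H3K4me2. Dyrk2, a kinase that acts on NFAT, had an intergenic region that was 1.59 higher in EDL than in Sol on the centred log2 scale. It differed by -1.05 in Ex against Sed and by -1.02 in mTg against Wt. Other genes of the list were also apart between muscles in H3K27ac. Calm2 was 1.28 and Csnk1a1 1.17 higher in EDL than in Sol. Regions of Homer2 differed by 1.44 in Dia against Quad and by -1.19 in Dia against Sol. All of these differences are per kb, and none is given over input.

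Some of these genes had regions in the differential lists. In the hypoacetylated Ex list Homer1, a scaffold of calcium channels, had 8.69 and 8.44 in Ex and 9.75 and 9.04 in Sed (-0.83), Cabin1, a calcineurin inhibitor, differed by -0.68, and Dyrk2 by -0.64 and -0.62. In the hyperacetylated mTg list Homer2 differed by 1.26 within the gene and by 1.03 at its promoter, and the calcium release channel Itpr1 by 0.52. In the hypoacetylated mTg list Homer1 differed by -1.0 and -0.98 in 2 intergenic regions. All of these regions were selected by the authors for differing.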

How the data were processed

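The authors aligned the reads to mm10 with Bowtie, kept unique reads with 1 tag a position, and called histone peaks with HOMER over both replicates of a mark and group, against input. Per the file headers each list gives a level per replicate on a log2 scale, taken here as DESeq2's regularized log of tags in the peak, together with a peak score and the log2 fold and p-value of the authors' own comparison with input, which served only to rank or restrict peaks and are not printed. In the 4 lists of differential H3K27ac the deposited log2 levels hold both groups, which the authors quantile normalized, and the authors' fold and p-value columns were not used beyond an alternative restriction. The deposited NFAT and MED1 peaks carry a score in normalized tags from 1 library each, and the deposited ATAC-seq list of control Quad a signal of normalized tags from pooled control libraries and its ratio to the local background. A combined ATAC-seq set and footprint files were not used.

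Log2 levels were expressed per kb of peak width and compared between lists after a 50% reciprocal match and centring, with no test, because each list was normalized on its own. Differences over 2-fold were counted. limma 3.58.1 was fitted in R 4.3.3 to each differential list, two-sided, with adjusted p under 0.05. It was tested on simulated data first. Scripts used Python 3.11.15, and matches to input, stricter and looser overlaps, no centring, a peak threshold of 0.001 and each replicate left out were the alternatives. Replicates are separate muscles or pools, of 2 a group, and depth was 6.41 to 24.2 M tags a library, so a p-value rests on 2 residual degrees of freedom moderated over the list. The members and the lists of pathway and marker genes were chosen with earlier results of these data known. Genes are named when they are members, and pathway genes when their regions were over 2-fold apart or in a differential list. Replicate numbers are shared between groups, but same-numbered libraries did not deviate together (correlations of 0.14, 0.11, -0.04 and -0.24 over the 4 lists), so no pairing was used. A result for 1 gene of the pathway list is not reported here.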

Additional observations from a re-analysis of the deposited data

How the results depend on the processing

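Counts of member regions over 2-fold apart depended on how regions were matched and scaled, and so did the share over all matched regions. For H3K27ac over the 6 pairs of muscles the count was 5. It was 2 at a reciprocal overlap of 80%, 9 at 30%, 9 without centring, 2 over input and 1 with peaks of an adjusted p under 0.001. For Ex against Sed it was 0, against 1 without centring and 0 to 2 with a replicate left out. For mTg against Wt it was 1, against 0 at 80%, 2 at 30%, 0 with the stricter peaks and 1 to 3 with a replicate left out. For the untreated quadriceps groups it was 1, against 0 at 80%, 7 without centring, 2 over input, 0 with the stricter peaks and 1 to 3 with a replicate left out. For H3K4me2 the muscles gave 3, against 6 at 30%, 0 over input and 1 with the stricter peaks. Ex against Sed gave 3, against 0 at 80%, over input and with the stricter peaks. The libraries labelled mTg and Wt gave 0, against 2 without centring, 3 over input and 0 to 2 with a replicate left out. The untreated groups gave 2, against 0 at 80%, 4 at 30%, 6 without centring, 11 over input, 0 with the stricter peaks and 1 to 2 with a replicate left out. The share of all matched regions over 2-fold apart was 0.980% for the untreated groups in H3K27ac, 6.79% without centring and 6.82% over input. In H3K4me2 it was 1.76%, 3.65% and 7.46% for them, and 0.724%, 2.00% and 15.1% for mTg against Wt. Over the muscles in H3K27ac it was 2.65%, 5.36% and 1.16%. Fewer regions are matched at 80% and with stricter peaks. For the other settings the cause was not tested.

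With the stricter peaks the members had 222 H3K27ac peaks in place of 495 and 195 H3K4me2 peaks in place of 437, and 42.5% of their merged H3K27ac regions were in all 4 muscles in place of 25.8% (49.0% of all). With the better-scoring ATAC peaks the share of member regions holding one was 30.3% in place of 47.0%.

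In the differential lists 1 Ex region and 11 mTg regions passed an adjusted p of 0.05 (limma). A replicate block left all 12 past it, 1 and 11, and the shared replicate numbers do not pair the libraries. With a replicate left out the Ex count was 0 to 1, and the lone library is then assumed to vary like the others. With a deposited adjusted p under 0.001 there were 5 mTg regions, all past the threshold. Each list holds 1 direction of change, so centring each library on its median over the list takes the list's median shift from every region. A region that changed less than its list's median then turns by construction, and these values say only where a region stands in its list. Of the regions, 0 Ex and 2 mTg then passed, and of these the Nfatc2 region chr2:168560938-168564056 (-0.78) kept its direction. The difference turned to 0.24 at Rcan1, -0.31 and -0.37 at the Rcan2 regions chr17:43848856-43850166 and chr17:43973023-43974033 (the second passed, reversed), -0.15 at Nfatc1, 0.07 and 0.11 at the Nfatc2 regions chr2:168547457-168549925 and chr2:168472690-168473639, and 0.16 at Ppp3ca. It kept its direction without passing the threshold at 3 Rcan2 regions (0.12, 0.16 and 0.33) and 1 Nfatc2 region (-0.27). Of 213 alternative values 151 kept their direction and size or side of the threshold. With 2 replicates a group and each list on its own scale, levels were not tested between lists.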

Other observations

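Among the 6 member regions matched in all 8 H3K27ac lists, the start site of Nfatc3 had the widest range of group means, 1.37 on the log2 scale per kb with each list centred on its median. Its values were 1.72 in EDL, 1.71 in Quad, 1.32 in Sol, 1.5 in Dia, 1.87 in Sed, 1.84 in Ex, 1.99 in Wt and 2.69 in mTg. The mTg peak was also the narrowest, 1753 bp against 2476 to 3531 bp in the other lists, and levels are per kb of peak. No region annotated to Nfatc3 was in the differential lists. Over the same 8 group means, 2326 other genes had a promoter to compare, and the most similar were those of Lypla1 (Pearson r of 0.977), Lemd3 (0.964) and Ago3 (0.958). These are correlations over 8 means that share libraries, chosen as the highest of many, and they are given as descriptions.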
